A study of Mus musculus with 8 samples.

Results

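The mouse mitochondrial genome holds 37 genes: 13 encode proteins of the respiratory chain and ATP synthase, 2 encode ribosomal RNAs and 22 encode transfer RNAs. They were taken as every gene whose symbol begins with mt- among the 55471 genes of the deposited tables, and all of them lie on chromosome M (GRCm38, symbols and positions from GENCODE M21). Of the 37, 15 had any count, namely the 13 protein genes and both ribosomal RNAs, and all 15 passed the low-count filter that left 13953 genes for testing. The 22 transfer RNA genes were listed at 0 in every library. They are 59 to 75 bases long and the quantification gave each an effective length of 0 in all 8 libraries, so their levels were not measured.

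RNA was sequenced from mouse blastocysts at embryonic day 4.5 in 3 wild-type libraries (WT), 2 libraries of genotype Isca2 -/- (KO) and 3 of genotype Isca2 G77S/G77S, homozygous for the G77S form (G77S). Isca2 encodes a mitochondrial protein that takes part in the assembly of iron-sulfur clusters, and the title of the series places the work in iron metabolism around implantation. The protocol given for every group states superovulated Isca2 +/- mothers, Isca2 +/- fathers, embryo culture in vitro, amplification of full-length mRNA with a single-cell kit and a transposase-based library. It does not say which mating gave the G77S embryos, how many embryos made up a library, or whether libraries of a group came from different litters, so p-values here weigh differences only against the scatter of these libraries, some of which may be technical.

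Both strands of the mitochondrial genome are transcribed into long precursors, and cutting at the transfer RNAs releases most of the messenger and ribosomal RNAs. mt-Atp8 with mt-Atp6, and mt-Nd4l with mt-Nd4, stay joined on shared messenger RNAs. The 13 proteins are core subunits of complexes I, III, IV and V, which are otherwise built from nuclear-encoded subunits, and complexes I and III carry iron-sulfur clusters in nuclear-encoded subunits. Because genes of a strand share a precursor, the levels of their mature RNAs are known to depend strongly on processing and decay.

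Libraries held between 10323965 and 23842619 expected counts. Isca2 stood at 4.84 and 6.20 CPM (read counts scaled to a common library size, with TMM factors) in KO and at 86.9 to 173 CPM in the other 6 libraries, low where the label names the deletion. The mean fragment length implied by the tables was 181 to 185 bases in G77S and 243 to 291 bases in WT and KO, so the preparation of the G77S libraries and their genotype cannot be told apart. RNA of Y-linked genes was near 0 in WT replicate 1 and G77S replicate 1 (0.335 and 0.0700 CPM) and 215 to 418 CPM in the other 6. All 8 trophectoderm markers had counts in every group, with a sum of 7366 to 11267 CPM in WT, 7834 to 12863 in KO and 3926 to 4757 in G77S. The 7 epiblast markers summed to 233 to 313, 90.8 to 95.2 and 129 to 228 CPM in WT, KO and G77S, with Sox2 and Esrrb at 0 in WT. The 8 primitive endoderm markers summed to 23.3 to 27.6, 138 to 300.2 and 30.5 to 38.8 CPM, with Gata4, Sox17, Foxa2 and Sox7 at 0 in WT and Gata4 and Foxa2 at 0 in G77S. Cumulus and granulosa markers, from the cells that surround the egg, summed to at most 6.45 CPM, with 7 to 9 of 10 at 0. In these bulk samples fewer cells of a type and less RNA per cell cannot be told apart, and the part that cell makeup has in the values below was not tested.

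For 7 of the 13 protein genes, the counts cannot be read alone, because an almost identical copy of each is annotated in the nuclear genome. Copies were sought among annotated transcripts only, and a copy here means an annotated one. The stretch between the copies of mt-Co2 and mt-Atp6, where mt-Atp8 would lie in the mitochondrial order, was not compared. The 7 copies lie side by side on the minus strand of chromosome 1 (chr1:24611535-24616197, 4663 bases), in the order of the mitochondrial genes, and are annotated as separate genes. Aligned to the mitochondrial transcripts, they matched over 4140 bases with 2 mismatches. Gm28661 matched mt-Co2 over 681 bases, Gm10925 matched mt-Atp6 over 678 bases, Gm28437 matched mt-Co3 over 783 bases, Gm10222 matched mt-Nd4l over 294 bases and Gm28439 matched mt-Nd4 over 876 of its 1378 bases, all without a mismatch. Gm29216 matched the last 483 bases of mt-Co1 and Gm28438 matched 345 bases of mt-Nd3, with 1 mismatch each. The stretches below show how little separates them (5′ to 3′ in the sense of the gene, GENCODE M21 transcripts, GRCm38). The first pair is the start of mt-Atp6 (chrM:7927-7986, plus strand) and of its copy (chr1:24614592-24614651, minus strand), with the start codon in capitals:
mt-Atp6: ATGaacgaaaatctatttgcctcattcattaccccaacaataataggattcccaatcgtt
Gm10925: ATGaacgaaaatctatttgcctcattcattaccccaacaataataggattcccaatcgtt
The next pair is the end of both (chrM:8578-8607 and chr1:24613974-24614000), with the stop codon that closes the mitochondrial gene model in capitals and the copy ending before it:
mt-Atp6: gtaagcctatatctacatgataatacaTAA
Gm10925: gtaagcctatatctacatgataataca
The last pair is the start of mt-Nd3 (chrM:9459-9491, plus strand) and of its copy (chr1:24613087-24613119, minus strand), with the differing base in capitals:
mt-Nd3: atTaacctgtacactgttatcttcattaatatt
Gm28438: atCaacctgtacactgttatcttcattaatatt
The mismatch of the last pair is T3C, mitochondrial base first and counted from the 5′ end of mt-Nd3, and that of mt-Co1 against Gm29216 is A1066T, counted from the 5′ end of mt-Co1. Within an aligned stretch, a fragment that covers neither mismatch nor an end of the copy fits both members of a pair equally.

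RSEM divides such reads between genes, and the division was uneven between pairs. mt-Nd4 kept 99.6 to 99.9% of the counts of its pair and mt-Co1 kept 73.3 to 82.1%. mt-Co3 kept 53.2, 50.4 and 53.0% in WT replicates 1 to 3, 50.3 and 48.1% in KO and 48.0, 46.4 and 44.9% in G77S, so that no library of one genotype fell within the range of another. mt-Atp6 kept 21.4, 36.2 and 35.6% in WT, 23.9 and 35.4% in KO and 40.95, 41.1 and 58.8% in G77S, and the G77S libraries lay above all others. mt-Co2 kept 23.2 to 45.2% and mt-Nd4l kept 19.6 to 40.0%. At the low end, mt-Nd3 kept 1.18, 5.63 and 9.36% in WT, 2.49 and 3.33% in KO and 8.47, 11.6 and 11.7% in G77S, so that most counts of this pair stand under Gm28438.

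**Figure D1:**
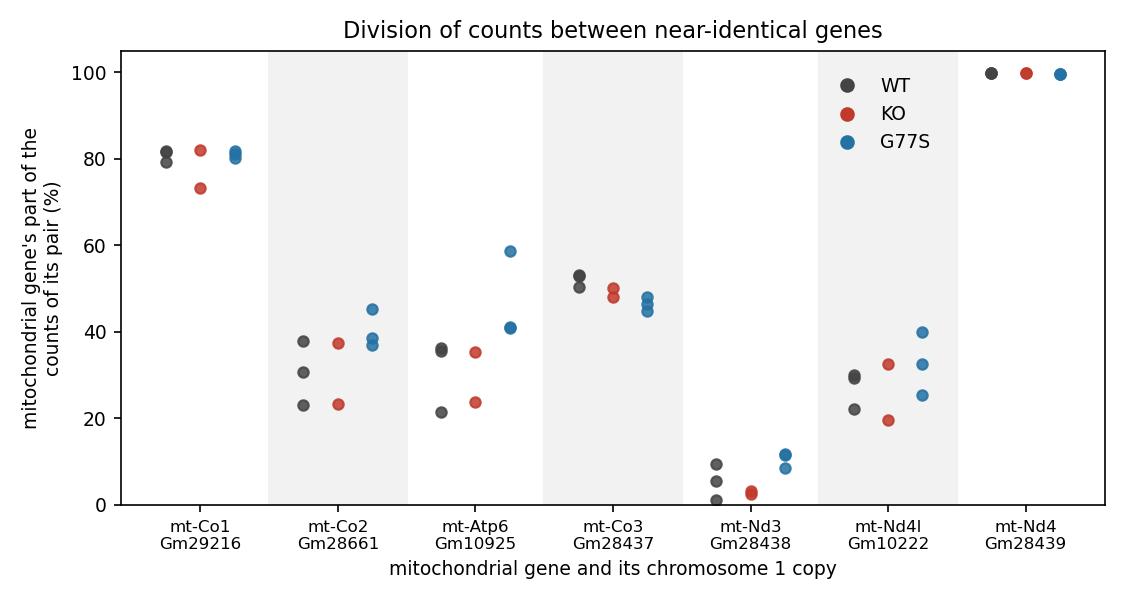
The vertical axis gives the mitochondrial gene's part of the expected counts of its pair, in percent, for each of the 8 libraries (1 point per library, coloured by genotype), and the horizontal axis lists the 7 pairs. mt-Nd4 takes nearly all of its pair, mt-Nd3 takes at most 11.7%, and the G77S points of mt-Atp6 lie above those of WT and KO.

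The counts of the other 8 members (mt-Rnr1, mt-Rnr2, mt-Nd1, mt-Nd2, mt-Atp8, mt-Nd5, mt-Nd6 and mt-Cytb) were whole numbers in every library, as undivided reads give. The sums of gene and copy were whole, to within 0.01 counts, in 8 of 8 libraries for mt-Atp6, mt-Co3, mt-Nd3, mt-Nd4l and mt-Nd4, so the division of their reads closes within the pair. They were whole in 2 of 8 libraries for mt-Co1 and in 0 of 8 for mt-Co2, and each of these has a further, less alike copy. Gm13340, 97.6% identical to mt-Co1, averaged 389.6 counts per library and Gm13341, 95.9% identical to mt-Co2, averaged 104 counts. Gm13339 (a copy of part of mt-Nd2) averaged 34.8 counts and Gm11410 (a copy of mt-Cytb, 92.9% identical) averaged 20.2 counts, so these less alike copies took few reads. Cep295, a centrosomal protein gene with stretches 74.5 to 78.7% identical to mitochondrial genes, averaged 187 counts. The 7 chromosome 1 copies made up 69.4 to 75.9% of all counts of annotated pseudogenes in WT, 77.1 to 86.0% in KO and 54.3 to 62.8% in G77S. In what follows a level "with its copy" is the summed count of a pair. Whether any of those reads came from chromosome 1 was not tested.

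Neighbouring mitochondrial genes also overlap. mt-Atp8 and mt-Atp6 share 43 bases, mt-Nd4l and mt-Nd4 share 7, mt-Atp6 and mt-Co3 share 1, and mt-Nd5 and mt-Nd6 share 14 on opposite strands. The shared bases of the ATP synthase genes (chrM:7927-7969, plus strand) hold the start codon of mt-Atp6, in capitals, inside the coding sequence of mt-Atp8:
mt-Atp8: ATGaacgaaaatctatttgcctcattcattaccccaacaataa
mt-Atp8 is only 204 bases long, below the fragment length of 5 of the 8 libraries, and its effective length was 7.13 to 31.5 bases. TPM divides by that length, and mt-Atp8 had a TPM of 7436 to 33380: 4.67 to 7.80% of all TPM was mitochondrial with it and 3.56 to 4.96% without it. mt-Nd6 is the only one of the 15 on the light strand. Whether strand was used in counting is not given in the sources used here, so reads of mt-Nd6 and reads antisense to it cannot be told apart.

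Per length, the protein genes spanned a wide range. On the scale of CPM per kilobase (by plain library totals, without TMM factors, copies included), mt-Atp6 had a level of 18454 ± 4721 (SD, n = 8 libraries) and was the highest of the 15. mt-Cytb at 8165 ± 1760, mt-Co3 at 8108 ± 1916, mt-Co2 at 7040 ± 1878, mt-Co1 at 6372 ± 2340 and mt-Nd1 at 5385 ± 2069 followed, and neighbours in that order differed by less than their spread. A lower tier held mt-Atp8 at 2560 ± 1440, mt-Nd4 at 1963 ± 229 and the large ribosomal RNA mt-Rnr2 at 1524 ± 412. The lowest levels were those of mt-Nd2 (866 ± 277), the small ribosomal RNA mt-Rnr1 (638 ± 195), mt-Nd4l (547 ± 183), mt-Nd5 (537 ± 65.1), mt-Nd3 (450 ± 182) and mt-Nd6 (424 ± 75.1), which also overlapped their neighbours. The means of the 3 complex IV genes and mt-Cytb thus stood above those of all 7 complex I genes, although mt-Nd1 lay within their spread. Per full kilobase, mt-Nd4l had a lower level than mt-Nd4, with which it shares a messenger RNA. Its effective length was 46.2 to 117 of 297 bases, against 1087 to 1197 of 1378 for mt-Nd4. The size of that difference thus depends on the length used. The effective length of mt-Nd3 was likewise short, 81.0 to 167 of 348 bases. The order of mt-Atp8 and mt-Atp6, counted alone, depends on the length used. Per full kilobase mt-Atp6 alone stood at 6545 ± 1701, above mt-Atp8. In TPM, by effective length, mt-Atp6 alone stood at 4431 to 10217 and mt-Atp8 at 7436 to 33380. There mt-Atp8 was the higher in every library except WT replicate 2 (mt-Atp6 7685, mt-Atp8 7436). The TPM of mt-Atp6 leaves out the reads given to its copy, and a TPM with the copy was not computed. The ribosomal RNAs, the most abundant mitochondrial RNAs in total RNA, made up only 4.74 to 9.39% of mitochondrial counts here, after amplification of mRNA.

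Mitochondrial genes took 3.35, 3.91 and 4.03% of all counts in WT replicates 1 to 3, 5.03 and 4.66% in KO, and 4.25, 3.38 and 3.38% in G77S. The KO libraries lay above all 6 others. With the 7 copies included, the shares were 4.77, 5.53 and 5.66% in WT, 7.54 and 7.06% in KO and 5.75, 4.67 and 4.405% in G77S, and the difference between the KO and WT means grew from 1.08 to 1.98 percentage points. Most of that difference lay in the genes that have an annotated copy. The 7 pairs took 3.37 ± 0.364% in WT (SD, n = 3), 5.05 ± 0.153% in KO (n = 2) and 3.03 ± 0.351% in G77S (n = 3). The 8 genes without an annotated copy took 1.82, 1.92 and 2.11% in WT, 2.39 and 2.12% in KO and 2.33, 1.79 and 1.64% in G77S. The lower KO library and the highest WT library thus nearly met, and G77S spanned both. The ribosomal RNAs took 0.315, 0.185 and 0.373% in WT, 0.295 and 0.398% in KO and 0.370, 0.253 and 0.228% in G77S, with all groups overlapping. These shares are sums over the members and carry no test.

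**Figure D2:**
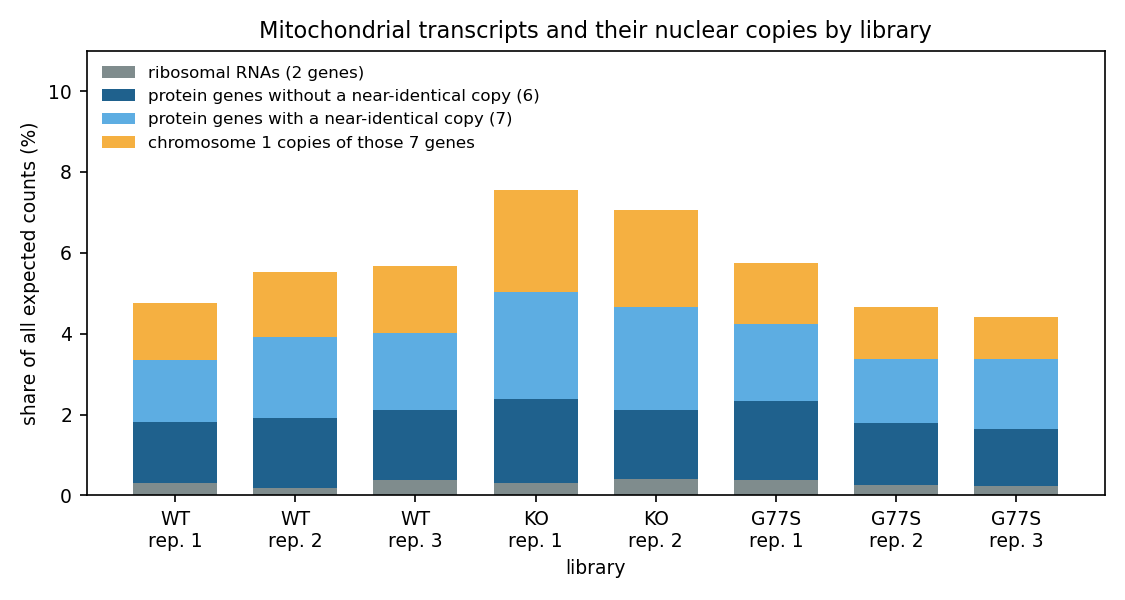
Bars give the share of all expected counts in each of the 8 libraries, in percent. Layers from the bottom are the ribosomal RNAs, the 6 protein genes without an annotated copy, the 7 with one and the chromosome 1 copies. The KO bars reach 7.54 and 7.06%, above all others, and differ from the WT bars mainly in the upper layers.

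The 3 complex IV genes include both genes called in any comparison by the main edgeR fit when mitochondrial genes are counted alone. That fit uses the low-count filter and all 8 libraries, and other settings, given below, called further genes. mt-Co1 (chrM:5328-6872), the catalytic subunit of cytochrome c oxidase, stood at 6606, 9022 and 7227 CPM in WT, 14726 and 11495 CPM in KO and 6328, 4416 and 4846 CPM in G77S. Every KO library lay above every WT library, and every G77S library lay below both. With its copy, mt-Co1 stood at 8062, 11365 and 8865 CPM in WT, 17936 and 15685 in KO and 7798, 5398 and 6038 in G77S, in the same order. mt-Co3 (chrM:8607-9390), a further core subunit of the oxidase, stood at 2453, 3551 and 3583 CPM in WT, 4589 and 4741 in KO and 2660, 1968 and 2153 in G77S. KO again exceeded the other groups, while the highest G77S library overlapped WT. mt-Co2 (chrM:7013-7696), which takes electrons from cytochrome c, overlapped between all groups when counted alone (717, 1427 and 1952 CPM in WT, 1633 and 2773 in KO, 2078, 1227 and 1495 in G77S). With its copy it stood at 3091, 4655 and 5151 CPM in WT, 6995 and 7414 in KO and 5381, 3319 and 3306 in G77S, with KO apart from both.

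The patterns of both ATP synthase genes differed. mt-Atp6 (chrM:7927-8607), part of the proton channel, stood with its copy at 9592, 12727 and 15217 CPM in WT, 18463 and 19621 in KO and 10433, 9055 and 7918 in G77S, so that KO was apart while WT and G77S overlapped. Counted alone it overlapped between all groups (2054, 4611 and 5412 CPM in WT, 4408 and 6938 in KO, 4272, 3723 and 4657 in G77S). mt-Atp8 (chrM:7766-7969), a small accessory subunit, stood at 211, 166 and 604 CPM in WT, 203 and 792 in KO and 764, 740 and 616 in G77S. The 3 G77S libraries lay close together and just above the highest WT library, and the KO libraries spread from one end of the range to the other. The G77S libraries have the shortest fragments, and the KO library with 203 CPM has the longest (291 bases). Libraries of like fragment length differed too. WT replicates 2 and 3 and KO replicate 2, at 166, 604 and 792 CPM, had fragments of 248, 243 and 243 bases. The part of fragment length in the mt-Atp8 values was not tested.

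mt-Cytb (chrM:14145-15288), the only mitochondrial-encoded subunit of complex III, has no near-identical annotated copy. It stood at 8538, 12585 and 11972 CPM in WT, 13426 and 9570 in KO and 6673, 6581 and 6861 in G77S. All 3 G77S libraries lay below all 5 others, while WT and KO overlapped. For both ribosomal RNAs, WT and KO overlapped. mt-Rnr1 (chrM:70-1024) stood at 495, 589 and 935 CPM in WT, 617 and 1071 in KO and 472, 423 and 402 in G77S, with G77S below the rest. mt-Rnr2 (chrM:1094-2675) stood at 2544, 1396 and 3188 CPM in WT, 2596 and 3390 in KO and 3018, 1736 and 1637 in G77S, with all groups overlapping.

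Complex I holds the other 7 protein genes, the membrane subunits of NADH dehydrogenase. mt-Nd1 (chrM:2751-3707) stood at 3640, 4022 and 4375 CPM in WT, 7198 and 6158 in KO and 8794, 4042 and 3217 in G77S. KO lay above WT, and G77S held both the highest and the lowest library, the highest being the replicate without Y-linked RNA. mt-Nd5 (chrM:11742-13565) stood at 1089, 1075 and 957 CPM in WT, 1166 and 1208 in KO and 735, 776 and 899 in G77S, with 3 groups that did not overlap. mt-Nd4 (chrM:10167-11544), which shares a messenger RNA with mt-Nd4l, stood at 2606 to 2964 CPM in WT, 2447 and 3415 in KO and 2199 to 2686 in G77S. mt-Nd2 (chrM:3914-4951) ranged from 568 to 1072 CPM in WT, 637 and 1256 in KO and 771 to 1342 in G77S, and mt-Nd6 (chrM:13552-14070, minus strand) from 191 to 266, 222 and 293, and 177 to 230, with all groups overlapping for these 3 genes.

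The remaining complex I genes are short and mostly assigned to their copies. mt-Nd3 (chrM:9459-9806) stood at 1.34, 4.37 and 12.5 CPM in WT, 3.60 and 6.31 in KO and 22.7, 18.7 and 17.8 in G77S when counted alone. With its copy it stood at 113, 77.04 and 133 CPM in WT, 146 and 189 in KO and 268, 161 and 151 in G77S. G77S lay above WT on both scales. Counted alone, G77S also lay above KO, while with the copy the libraries of KO and G77S overlapped, at means of 167 and 193 CPM. mt-Nd4l (chrM:9877-10173) stood with its copy at 95.0, 211 and 167 CPM in WT, 120 and 113 in KO and 217, 172 and 191 in G77S, which placed G77S above KO and overlapping WT.

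KO against WT, the comparison of embryos without Isca2 with wild type, gave no call among the 15 mitochondrial genes (edgeR quasi-likelihood test, adjusted p under 0.05, adjusted over 13953 genes). The background was 0.122% of genes called, 0.0788% higher and 0.043% lower. At an unadjusted p under 0.05 stood 1819 genes, 2 of them mitochondrial (mt-Co1 and mt-Co3), and DESeq2 called none of the 15, against 631 of all genes. Without the low-count filter mt-Co1 was called higher in KO (log2 fold change 0.79, adjusted p = 0.0318). In the simulated test of this comparison, 1.8% of genes changed 2-fold and 23% of genes changed 4-fold were called. Those genes were drawn at random from all 13953. The rates are thus not those of the mitochondrial genes, which were not simulated apart. Log2 fold changes were positive for 13 of 15, with a median of 0.33 against -0.06 over all genes. mt-Co1 had the highest log2 fold change, 0.78 (SE 0.22, adjusted p = 0.185), from 7618 ± 1255 CPM in WT (SD, n = 3) to 13111 ± 2284 in KO (n = 2). mt-Nd1 had 0.74 (SE 0.35, adjusted p = 0.405), mt-Co2 had 0.69 (SE 0.39) and mt-Co3 had 0.55 (SE 0.22, adjusted p = 0.336). mt-Cytb had 0.06 (SE 0.22, adjusted p = 0.957), with no direction that held. Levels in CPM did not overlap for 4 genes, all higher in KO (mt-Nd1, mt-Co1, mt-Co3 and mt-Nd5), against 13.1% of all genes higher and 12.5% lower without overlap. With copies included this became 7 genes, all higher, by the addition of mt-Co2, mt-Atp6 and mt-Nd3. In an alternative fit, the dependence of every library on transcript length and GC content was taken out (below, the length and GC trend). Then 6 of 15 were positive and the median was -0.12, so the sign of the median depends on that step, with mt-Co1 at 0.48 and mt-Cytb at -0.33. The 15 mitochondrial genes sit at 31.9 to 41.1% GC. Only 789 tested nuclear genes lie at or below 41.1%, and the chromosome 1 copies were not left out of that count.

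G77S against WT, the comparison of the substituted form with wild type, also gave no call among the 15, against 3.39% of all genes (1.3% higher and 2.09% lower, with 2797 genes at an unadjusted p under 0.05, of which 5 were mitochondrial). DESeq2 called mt-Cytb lower and no other of the 15, against 817 of 13953 genes that it called lower. Of the 15, 7 had positive and 8 negative log2 fold changes, with a median of -0.15 against 0.04 over all genes. mt-Cytb had the lowest value, -0.72 (SE 0.20, adjusted p = 0.0760), from 11031 ± 2181 CPM in WT to 6705 ± 143 in G77S (SD, n = 3 each). It passed the threshold without WT replicate 1 (adjusted p = 0.0224), without the low-count filter (0.0125) and in DESeq2 (0.0182), and with the length and GC trend removed its log2 fold change was -0.33. mt-Rnr1 had -0.64 (SE 0.28, adjusted p = 0.225), mt-Co1 had -0.55 (SE 0.20, adjusted p = 0.161) and mt-Co3 had -0.50 (SE 0.20, adjusted p = 0.195), while mt-Atp8 had 1.11 (SE 0.53, adjusted p = 0.273). mt-Nd3 had 1.69 (SE 0.68, adjusted p = 0.194) alone and 0.84 (SE 0.29, adjusted p = 0.136) with its copy. Without the low-count filter mt-Atp8 (adjusted p = 0.000522) and mt-Nd3 alone (0.0493) were called higher in G77S, and mt-Nd3 alone was called in limma on log2(TPM + 1) as well (0.0304). Levels did not overlap for 2 genes higher in G77S (mt-Atp8 and mt-Nd3) and 4 lower (mt-Rnr1, mt-Co1, mt-Nd5 and mt-Cytb), with or without copies, against 17.2% of all genes higher and 11.8% lower. The sign of the median was not stable: it was 0.12 without WT replicate 3, 0.29 with the length and GC trend removed (9 of 15 positive), and 0.15 on log2(TPM + 1), where the median of all genes was 0.24.

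G77S against KO compared the 2 mutant genotypes, and it shares its libraries with the comparisons above. mt-Co1 and mt-Co3 were called lower in G77S, the only 2 of the 15 called, against 4.19% of all genes (1.76% higher and 2.43% lower). mt-Co1 fell by 1.34 on the log2 scale (SE 0.22, adjusted p = 0.0103), from 13111 ± 2284 CPM in KO (SD, n = 2) to 5197 ± 1003 in G77S (n = 3), and was lower in 3 of 3 G77S libraries. mt-Co3 fell by 1.05 (SE 0.22, adjusted p = 0.0276), from 4665 ± 108 to 2260 ± 358 CPM. With the copies included, 3 were called lower, against 2.42% of all genes: mt-Co1 fell by 1.39 (adjusted p = 0.00839), mt-Co3 fell by 0.97 (adjusted p = 0.0355) and mt-Atp6 fell by 1.06 (SE 0.22, adjusted p = 0.0246), where mt-Atp6 alone had -0.43 (adjusted p = 0.540). With the length and GC trend removed no mitochondrial gene was called, against 4.58% of all genes: mt-Co1 had -0.75 (adjusted p = 0.199) and mt-Co3 -0.20 (adjusted p = 0.759), and mt-Atp6 with its copy had -0.18 (adjusted p = 0.808). The call of mt-Co1 was also lost without KO replicate 1 (adjusted p = 0.0692), without G77S replicate 2 (0.0653) or without G77S replicate 3 (0.0596), that of mt-Co3 without any 1 of the KO libraries or of G77S replicates 2 and 3 (0.0954 to 0.128), that of mt-Co1 with its copy without G77S replicate 2 (0.0513), and those of mt-Atp6 and mt-Co3 with their copies without any 1 of the 5 libraries (0.0510 to 0.121 and 0.069 to 0.165).

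Among the genes that edgeR did not call in G77S against KO, mt-Rnr1 had -0.97 (SE 0.30, adjusted p = 0.107), mt-Cytb had -0.78 (SE 0.22, adjusted p = 0.0753) and mt-Nd5 had -0.56 (SE 0.19, adjusted p = 0.124). DESeq2 called all 3 lower (adjusted p = 0.0274, 0.0174 and 0.0270), against 843 of 13953 genes that it called lower. mt-Cytb was also called without the low-count filter (0.0123) and with the 2 groups alone (0.0435), and mt-Rnr1 without the filter (0.00536). With the length and GC trend removed, mt-Cytb had -8.2e-05, close to 0, and mt-Rnr1 had 0.10, opposite in sign. mt-Nd3 alone had 1.99 (SE 0.80, adjusted p = 0.189) and was called higher without the filter (0.0471), with the 2 groups alone (0.0366) and in limma on log2(TPM + 1) (0.0488), but it had 0.21 with its copy. mt-Nd4l had 1.08 (SE 0.43, adjusted p = 0.184) alone and 0.73 with its copy. The median over the 15 was -0.43 against 0.10 over all genes, with 11 negative, and 0.32 with 11 positive once the length and GC trend was removed. Levels did not overlap for 2 genes higher in G77S (mt-Nd3 and mt-Nd4l) and 5 lower (mt-Rnr1, mt-Co1, mt-Co3, mt-Nd5 and mt-Cytb), against 24.9% of all genes higher and 20% lower. With copies included, mt-Nd4l alone was higher and mt-Co2 and mt-Atp6 joined the 5 lower genes.

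**Figure D3:**
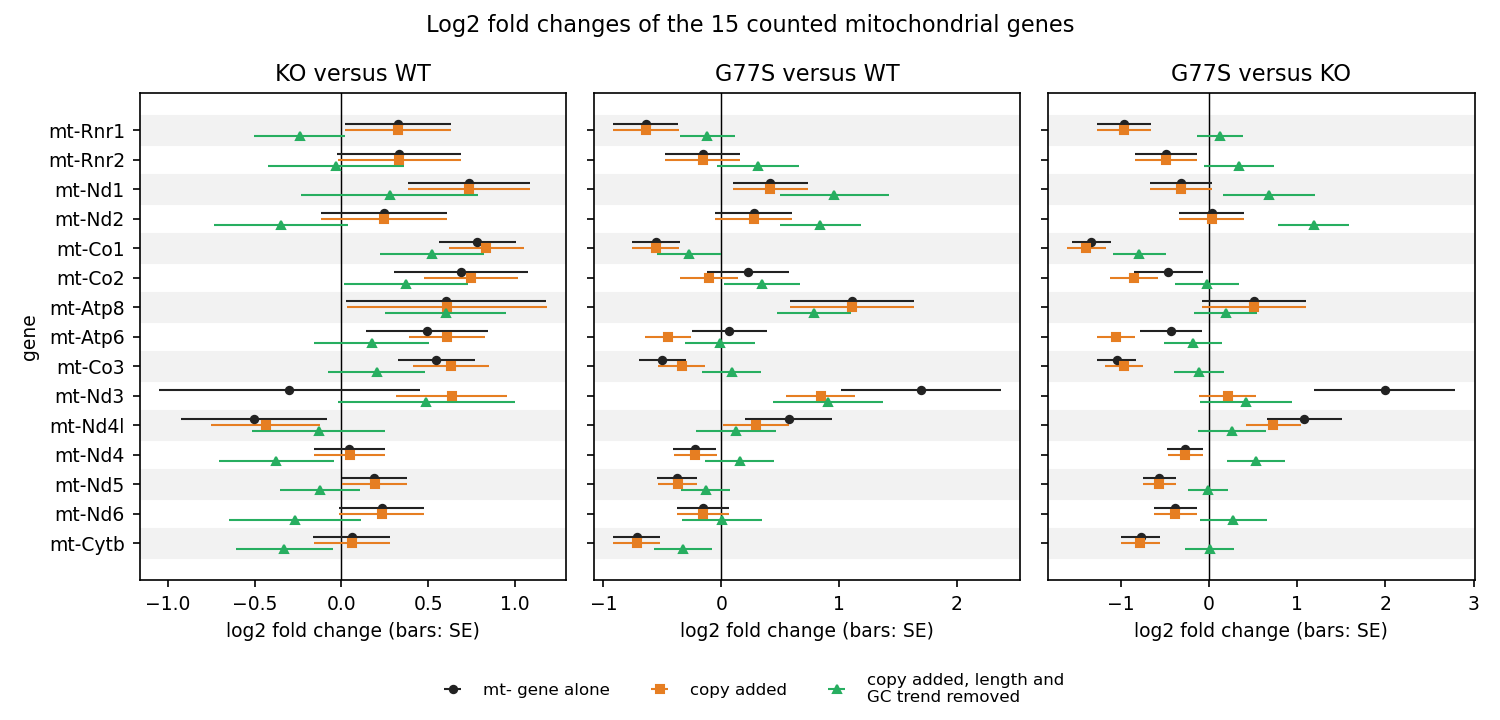
The 3 panels give log2 fold changes with their standard errors as bars for the 15 counted mitochondrial genes, 1 panel per comparison, for the gene alone (black), with its copy added (orange), and with the copy added and the length and GC trend removed (green). The black and orange points of the complex IV genes lie right of 0 in KO against WT and left of it in G77S against KO, where the green points of mt-Atp6 and mt-Co3 lie near 0, at -0.18 and -0.11.

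Shares within the mitochondrial counts do not depend on how abundant mitochondrial RNA is as a whole. With the copies included, mt-Co1 made up 17.5, 19.2 and 14.2% in WT, 21.8 and 19.8% in KO and 14.4, 13.6 and 15.3% in G77S, highest in both KO libraries. mt-Cytb made up 18.5, 21.2 and 19.1% in WT, 16.3 and 12.1% in KO and 12.3, 16.5 and 17.4% in G77S. It was thus lower in all 5 mutant libraries than in any WT library, although its CPM level overlapped between KO and WT. mt-Atp6, the largest share in all 8 libraries, made up 20.8, 21.5 and 24.3% in WT, 22.4 and 24.8% in KO and 19.2, 22.7 and 20.1% in G77S, and mt-Co3 made up 10.01 to 12.5% throughout, with all groups overlapping for both. mt-Nd1 made up 7.90, 6.78 and 6.995% in WT, 8.75 and 7.79% in KO and 16.2, 10.2 and 8.15% in G77S.

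The 3 shortest genes took larger shares in G77S. mt-Atp8 made up 0.458, 0.280 and 0.966% of mitochondrial counts in WT, 0.247 and 1.002% in KO and 1.41, 1.86 and 1.56% in G77S. mt-Nd3 made up 0.245, 0.130 and 0.213% in WT, 0.177 and 0.239% in KO and 0.494, 0.404 and 0.383% in G77S. For mt-Nd4l the shares were 0.206, 0.356 and 0.266% in WT, 0.146 and 0.143% in KO and 0.3997, 0.431 and 0.483% in G77S. All 3 were higher in every G77S library than in any other library. The same held for mt-Nd2, of 1038 bases, at 2.47, 1.94 and 1.99% in G77S against at most 1.71% in WT and 1.59% in KO. It did not hold for mt-Nd6, the next shortest at 519 bases (0.327 to 0.582% in G77S, 0.321 to 0.578% in WT). mt-Atp8, mt-Nd3 and mt-Nd4l are the shortest of the 15, at 204, 348 and 297 bases. The G77S fragments are the shortest too, so fragment length and genotype cannot be told apart here.

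Counted over the 15 genes with copies included, 2 shares were higher in KO than in WT without overlap (mt-Co1 and mt-Co2) and 4 lower (mt-Nd4l, mt-Nd4, mt-Nd5 and mt-Cytb). The same ratio to the mitochondrial total, taken for all 13953 tested genes, was higher without overlap for 4.93% and lower for 28.8%. For G77S against WT, 6 shares were higher (mt-Nd1, mt-Nd2, mt-Co2, mt-Atp8, mt-Nd3 and mt-Nd4l) and mt-Cytb lower, against 23.7 and 5.47% of all genes. For G77S against KO, 5 were higher (mt-Nd2, mt-Atp8, mt-Nd3, mt-Nd4l and mt-Nd4) and mt-Co1 lower, against 48.6 and 4.92%.

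**Figure D4:**
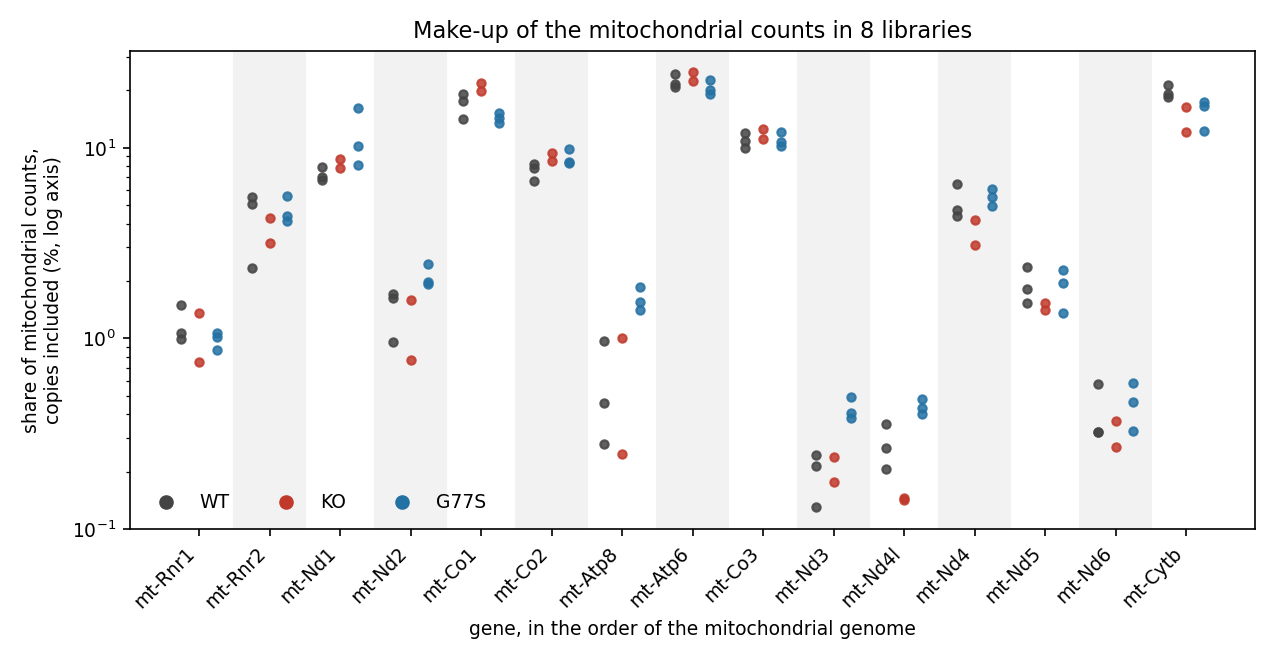
Each gene's share of the mitochondrial counts, copies included, is given in percent on a log axis, with 1 point per library coloured by genotype and genes in the order of the mitochondrial genome. mt-Nd2, mt-Atp8, mt-Nd3 and mt-Nd4l are higher in all 3 G77S libraries than in any WT or KO library. The mt-Cytb points of WT lie above those of both mutant groups.

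The nuclear genes that transcribe, process and maintain mitochondrial DNA and RNA were followed with the same fits, as were the nuclear subunits of each complex, in lists chosen by function. Of 48 tested genes of mitochondrial DNA expression and maintenance, none was called in KO against WT (median log2 fold change 0.20 against -0.06 over all genes) or in G77S against WT (0.03 against 0.04), with 5 and 9 at an unadjusted p under 0.05 and 1 and 6 called by DESeq2. Over all 13953 genes, 1819 and 2797 stood at that p, and DESeq2 called 631 and 1523. In G77S against KO, 1 was called higher and 2 lower, beside 1.76 and 2.43% of all genes (median -0.21 against 0.10). On log2(TPM + 1) that median was 0.30 against 0.34 over all genes. The KO against WT median was -0.04 against -0.12 over all genes there. Both list medians were opposite in sign to those above, but each kept its side of the median of all genes. Hsd17b10, which encodes a subunit of mitochondrial RNase P, the enzyme that cuts transfer RNAs at their 5′ ends, stood at 81.4, 85.5 and 102 CPM in WT, 206 and 274 in KO and 54.1, 60.7 and 75.5 in G77S. Its levels were higher in both KO libraries than in all others, and it was lower in G77S than in KO by 1.92 on the log2 scale (log2 fold change -1.92, SE 0.25, adjusted p = 0.00400). Against WT its KO value was 1.42 (adjusted p = 0.0646). Fastk, whose mitochondrial form is needed for mt-Nd6 messenger RNA, stood at 7.58, 13.7 and 9.31 CPM in WT, 5.49 and 3.76 in KO and 30.9, 33.7 and 25.9 in G77S, higher in G77S than in KO (log2 fold change 2.70, SE 0.46, adjusted p = 0.0117). mt-Nd6 itself had -0.38 in that comparison (adjusted p = 0.405). Mterf2, of a family of mitochondrial transcription termination factors, stood at 10.1, 21.1 and 16.5 CPM in WT, 17.1 and 27.1 in KO and 4.06, 5.44 and 6.33 in G77S (log2 fold change -2.07 against KO, SE 0.47, adjusted p = 0.0354).

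The other 7 of the 8 most abundant genes of that list were not called in any comparison. Cox14 and Coa3, which act in the synthesis of the mt-Co1 protein, stood at 324 ± 53.3 and 240.3 ± 50.8 CPM in WT, 312 ± 94.0 and 273 ± 65.3 in KO and 242 ± 44.1 and 213 ± 22.0 in G77S (SD, n = 3, 2 and 3). Ssbp1, the single-stranded DNA-binding protein of mitochondrial replication, stood at 217 ± 38.6, 301 ± 69.5 and 216 ± 22.8 CPM, and Slirp, which with Lrpprc stabilises mitochondrial messenger RNAs, at 141 ± 45.3, 189 ± 69.0 and 178 ± 15.8. Ptcd3, a protein of the small mitochondrial ribosomal subunit, stood at 123 ± 27.9, 153 ± 13.2 and 133 ± 44.1 CPM. Mterf3, a regulator of mitochondrial transcription, stood at 90.3 ± 31.4, 137 ± 21.1 and 94.3 ± 20.9 CPM. Fastkd2, which binds the large mitochondrial ribosomal RNA, stood at 134 ± 37.2, 134 ± 1.73 and 73.0 ± 24.1 CPM, lowest in the G77S group mean but uncalled there (adjusted p = 0.132 against WT and 0.165 against KO).

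Nuclear subunits of the complexes were lower in G77S by count and median, with few calls. Over all genes, 2.09% were called lower in G77S than in WT and 2.43% lower than in KO, and the medians were -0.06 in KO against WT, 0.04 in G77S against WT and 0.10 in G77S against KO. In the same order of comparisons, 1819, 2797 and 2895 of the 13953 genes stood at an unadjusted p under 0.05. DESeq2 called 631, 1523 and 1686. Of 36 nuclear complex I subunits, 3 were called lower in G77S than in WT (median -0.52), 5 lower than in KO (median -0.68) and none was called in KO against WT (median 0.26, 1 at an unadjusted p under 0.05, none called by DESeq2). With the length and GC trend removed the medians were -0.57, -0.69 and 0.10, with 12, 13 and 0 called lower, beside 2.77 and 2.58% of all genes called lower in G77S than in WT and in KO, so the medians kept their sign. Ndufs4, an accessory subunit of the electron-input arm, stood at 288, 484 and 491 CPM in WT, 423 and 591 in KO and 170, 174 and 223 in G77S, below both in every G77S library (log2 fold change -1.42 against KO, adjusted p = 0.0204, and -1.16 against WT, adjusted p = 0.0378). The other two called against WT were Ndufa1 (-1.20, adjusted p = 0.0496), from 267 ± 17.6 CPM in WT to 116 ± 43.8 in G77S, and Ndufa10 (-0.85, adjusted p = 0.0373), from 647 ± 83.8 to 359 ± 40.2. Ndufab1, the mitochondrial acyl carrier protein, stood at 850 ± 30.9 CPM in KO and 359 ± 87.8 in G77S (log2 fold change -1.24, adjusted p = 0.0260). Ndufb5 (-1.26, adjusted p = 0.0208) and Ndufa12 (-1.15, adjusted p = 0.0204), also accessory subunits, complete the 4 named of the 5 called against KO. Of 9 complex III subunits, Uqcrq (log2 fold change -1.24, adjusted p = 0.0485) and Uqcr11 (-1.61, adjusted p = 0.0238) were called lower in G77S than in KO (median -0.42). No subunit of the 9 was called in G77S against WT (median -0.29) or in KO against WT (median 0.08). In that order, 2 and 1 stood at an unadjusted p under 0.05 and 2 and 1 were called by DESeq2. On log2(TPM + 1) the KO against WT median was -0.06, against -0.12 over all genes. None of the 11 complex IV or 17 complex V subunits was called in any comparison. At an unadjusted p under 0.05 stood 1, 3 and 10 of the former and 0, 5 and 6 of the latter in KO against WT, G77S against WT and G77S against KO, where DESeq2 called 0, 1 and 3 and 0, 3 and 5. Of the 5 complex V calls, 1 was higher in G77S and 4 lower, and the other DESeq2 calls were lower. The complex IV and V medians were 0.30 and 0.06 in KO against WT, -0.48 and -0.28 in G77S against WT, and -0.75 and -0.39 in G77S against KO. In the last, all 11 complex IV subunits had negative values, as mt-Co1, mt-Co2 and mt-Co3 did. With the trend removed 10 of those 11 were negative. In that fit 2 complex IV and 3 complex V subunits were called lower in G77S than in WT, and 4 and 1 lower than in KO. Its complex V median in KO against WT was -0.01, against -0.09 over all genes. On log2(TPM + 1) that complex V median was -0.04, against -0.12 over all genes.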

How the data were processed

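Blastocyst RNA of 8 libraries was quantified by the authors with RSEM, 1 gene table per library, per the file headers. Read trimming with Trim Galore 0.4.5, alignment with STAR 2.6.1c, RSEM 1.3.1 and also DESeq2 1.42.1, on mm10 (GRCm38), are listed in the submitters' processing notes. The sources used here do not give the annotation release or the strand setting. The deposited expected counts are estimates in which reads fitting several genes are divided between them. The deposited TPM values divide by effective length and are scaled per library. Fragment length was read as length less effective length, and expected counts were rounded for the tests.

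Symbols came from GENCODE M21 (55230 of 55471 identifiers matched). Nuclear copies were found with BLAST 2.17.0 among its transcripts and taken at 99% identity or more over at least 200 bases. The 13953 genes kept by the low-count filter were tested with edgeR 4.0.16 (R 4.3.3): TMM scaling, 1 mean per genotype over all 8 libraries, quasi-likelihood F tests and p-values adjusted by Benjamini-Hochberg over all genes, with calls at an adjusted p under 0.05. The SE is the log2 fold change divided by the square root of F. A check on counts simulated for the 13953 genes changed 200 of them, drawn at random, in 5 simulations per comparison. The fit called 2.4% of 2-fold, 29% of 4-fold and 50% of 8-fold changes in G77S against WT, and 0.9, 21.5 and 40.9% in G77S against KO. Of all its calls, 6.1% (KO against WT), 4.6% (G77S against WT) and 2.8% (G77S against KO) were false.

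Alternatives were RLE scaling, TMM factors computed without the mitochondrial genes, no filter, a stricter one (5 CPM in 2 libraries), a fit of the compared groups alone, a replicate block, DESeq2 1.42.0, limma 3.58.1 on log2(TPM + 1), counts of copies added to their genes, removal of the length and GC trend (GC known for 99.8% of tested genes), and each library left out. For shares, TPM, leaving out ribosomal RNAs, leaving out the 10 most abundant nuclear genes, and added copies were tried. Added copies were also combined with the trend removal and with each library left out, choices made after seeing the data.

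Named are all 15 counted mitochondrial genes, Isca2, the called genes and the 8 most abundant of the maintenance list, up to 4 called genes per subunit list and comparison, and nuclear copies averaging at least 10 counts. Members and lists were chosen with earlier results of these data known.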

Additional observations from a re-analysis of the deposited data

How the results depend on the processing

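Each genotype has 2 or 3 libraries, and whether depth or their spread limits the tests more was not tested. The causes of the changes below were not tested. Genes called in KO against WT (17) numbered 547 without the filter, 60 with the stricter filter, 11 with the 2 groups alone, 8 with the replicate block, 31 with copies added and trend removed, 631 in DESeq2 and 95 in limma on log2(TPM + 1). Leaving out single libraries gave 0 (without KO replicate 2, with 1366 genes at an unadjusted p under 0.05) to 42 (without KO replicate 1). In G77S against WT (473) they numbered 1336, 746, 1523 and 1466 without the filter, with the stricter filter, in DESeq2 and in limma, and 86 to 638 with single libraries left out. In G77S against KO (585) they numbered 1411 without the filter, 1009 with the 2 groups alone, 1686 in DESeq2, 1849 in limma and 161 to 243 with single libraries left out. Where KO kept 1 library, its spread is assumed to be like that of the other groups.

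On log2(TPM + 1) the split into higher and lower calls was 1178 and 288 in G77S against WT (182 and 291 in edgeR) and 1543 and 306 in G77S against KO (246 and 339), and the median of all genes moved from 0.04 to 0.24 and from 0.10 to 0.34. Deviations of same-numbered libraries from their group means correlated at -0.044 to 0.099. With so few libraries per genotype, these correlations cannot show whether libraries of the same number belong together, for instance by litter. The replicate block gave 411 calls in G77S against WT and 600 in G77S against KO.

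Over the 15 mitochondrial genes, removal of the length and GC trend moved the medians to -0.12, 0.29 and 0.32 in KO against WT, G77S against WT and G77S against KO, and to 0.19 in the last with copies added too. Leaving out single libraries gave medians of 0.13 to 0.64, -0.25 to 0.12 and -0.57 to -0.29. mt-Cytb changed sign in KO against WT, at -0.33 with the trend removed, -0.33 with copies added as well, -0.13 in limma and between -0.20 and 0.28 with single libraries left out. In the fit with copies added and trend removed, mt-Co3 had 0.0902 in G77S against WT and mt-Cytb had 0.0051 in G77S against KO.

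The mitochondrial share of counts differed by 1.08 percentage points between KO and WT, by 1.61 in TPM, 1.98 with copies and 0.876 to 1.27 with single libraries left out. Between G77S and WT it differed by -0.0909, by 0.492 in TPM and by -0.379 to 0.0537 with single libraries left out. The share of mt-Co1 within mitochondrial counts, without copies, differed by 5.03 points between KO and WT (1.28 in TPM, 2.63 to 7.44 with single libraries left out) and by -8.74 between G77S and KO (-3.48 in TPM, -11.2 to -6.34). That of mt-Cytb differed by -7.08 between G77S and WT, and by -8.14 to -5.06 with single libraries left out.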
